A study of Mus musculus with 7 samples.

Results

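Goblet cell mucus genes were examined in bulk RNA-seq of mouse intestinal epithelium. They are the 9 genes Muc2, Tff3, Fcgbp, Clca1, Zg16, Agr2, Spink4, Spdef and Retnlb, chosen by name from the 46671 genes of the deposited table, and each name matched 1 gene. The study compared 3 wild-type libraries (Ctrl) with 4 libraries (cKO) whose intestinal epithelial cells lacked the kinase MST3 (gene Stk24). Per the labels all 7 libraries came from BALB/C mice of 8 weeks kept free of specific pathogens, and the design text calls the mice littermates. Azoxymethane, a carcinogen, and dextran sulfate sodium, which injures the colon, are named in the design text, while the treatment label shared by both groups says that no drug was used. The Cre driver of the knockout is not given in the sources used here, and no label says whether the libraries are separate mice. The p-values therefore measure only how far these libraries spread, which may be technical.

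Goblet cells are the mucus-secreting cells of the intestinal epithelium. Their gel-forming mucin MUC2 is folded and linked into polymers in the endoplasmic reticulum, heavily glycosylated in the Golgi apparatus, stored in granules and released to form the mucus layer between the epithelium and the bacteria of the lumen. Other secreted proteins, among them FCGBP, CLCA1, ZG16 and TFF3, are packed with it, and the transcription factor SPDEF drives goblet cell maturation. The mouse small intestine carries fewer goblet cells than the colon.

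Depth was 14659708 to 19659622 gene-assigned reads per library. Values are FPKM, reads per length of the gene, scaled for library size, so levels can be set side by side between genes. Stk24 stood at 19.4, 19.4 and 21.0 FPKM in Ctrl replicates 1 to 3 and at 2.92, 3.04, 3.85 and 3.53 FPKM in cKO replicates 1 to 4, which matches the genotype labels. The samples are labelled as colorectum. Of 10 genes listed for colon, 5 lay below the level for testing: Car1, a carbonic anhydrase of colonocytes, reached at most 0.0705 FPKM, Best2, a channel of colonic goblet cells, 0.259 FPKM, Hoxb13 0.304 FPKM and Aqp8 1.56 FPKM, and Prdx6b was listed at 0 in all 7 libraries. The other 5 were read, among them Slc26a3, an anion exchanger found in both regions, at 24.2 to 57.9 FPKM, Mettl7b at 18.9 to 41.7 FPKM, Cyp2c55 at 5.63 to 19.1 FPKM and Aqp4 at 1.98 to 4.57 FPKM. The 10 summed to 62.3 to 124 FPKM, against 2162 to 3717 FPKM for the 10 genes listed for small intestine. Small-intestinal Slc5a1, the sodium-glucose transporter, stood between 755 and 1479 FPKM, and the Paneth cell defensin Defa24 between 2033 and 16415 FPKM. In such bulk samples fewer goblet cells and less RNA per goblet cell cannot be told apart.

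The promoters of Muc2 and Fcgbp are shown because these genes, both on chromosome 7, encode the large multidomain proteins of the mucus gel and yet had different profiles over the libraries, as given below. Each sequence is the 250 bases before the RefSeq transcription start, read 5′ to 3′ on the plus strand of GRCm38.p6, at chr7:141690090-141690339 for Muc2 and chr7:28070986-28071235 for Fcgbp. Capitals mark matches on either strand to the TATA element (TATAA), to the core that GATA factors bind (AGATAA), and to a box of Krüppel-like and Sp factors (CCACCC).
Muc2: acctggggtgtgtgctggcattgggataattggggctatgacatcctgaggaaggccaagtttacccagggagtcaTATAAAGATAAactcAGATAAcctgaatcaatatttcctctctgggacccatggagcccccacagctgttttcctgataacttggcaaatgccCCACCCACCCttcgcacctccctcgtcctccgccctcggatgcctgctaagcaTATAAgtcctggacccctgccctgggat
Fcgbp: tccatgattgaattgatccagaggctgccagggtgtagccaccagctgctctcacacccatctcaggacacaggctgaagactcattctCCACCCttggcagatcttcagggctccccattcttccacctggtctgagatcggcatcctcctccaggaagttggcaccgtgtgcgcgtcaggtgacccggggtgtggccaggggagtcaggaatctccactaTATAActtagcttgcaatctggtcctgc

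In both windows a TATAA begins 28 bases before the start. The Muc2 window also holds TATAA at 174 bases, AGATAA at 169 and 159 bases, and CCACCC at 81 and 77 bases before the start, the last pair overlapping. Fcgbp has CCACCC at 161 bases and no AGATAA in this window. Over 32851 windows of the same length, 22.8% held TATAA, 9.99% AGATAA and 28.1% CCACCC on either strand. GGAT, the core of the motif bound by SPDEF, was found 4 times in Muc2 and 2 times in Fcgbp on either strand, and 74.1% of all windows held it. Of the 9 genes, 4 had a window in the table; Agr2 and Spdef, the other two, also held GGAT, 2 and 5 times. These matches describe letters and show no binding.

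No member passed the test between the genotypes. In limma on log2(FPKM + 0.5), with Benjamini-Hochberg adjustment over all 13057 genes tested, 0 of the 9 members passed an adjusted p of 0.05, against 0.0306% of all genes tested, and 0 members passed with limma voom on the recovered reads. At an unadjusted p under 0.05 there were also 0 members, against 8.97% of all genes, and 0 members had libraries that did not overlap between the groups, against 10.1% of all genes. The member means were higher in cKO for 5 genes and lower for 4 (48.7% of all genes were higher), with a median log2 difference of 0.027 against -0.0077 over all genes tested. Adjusted p lay between 0.646 for Spink4 and 0.978 for Agr2. The intervals of the differences were wide, so changes within them were not detectable with these libraries.

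**Figure D1:**
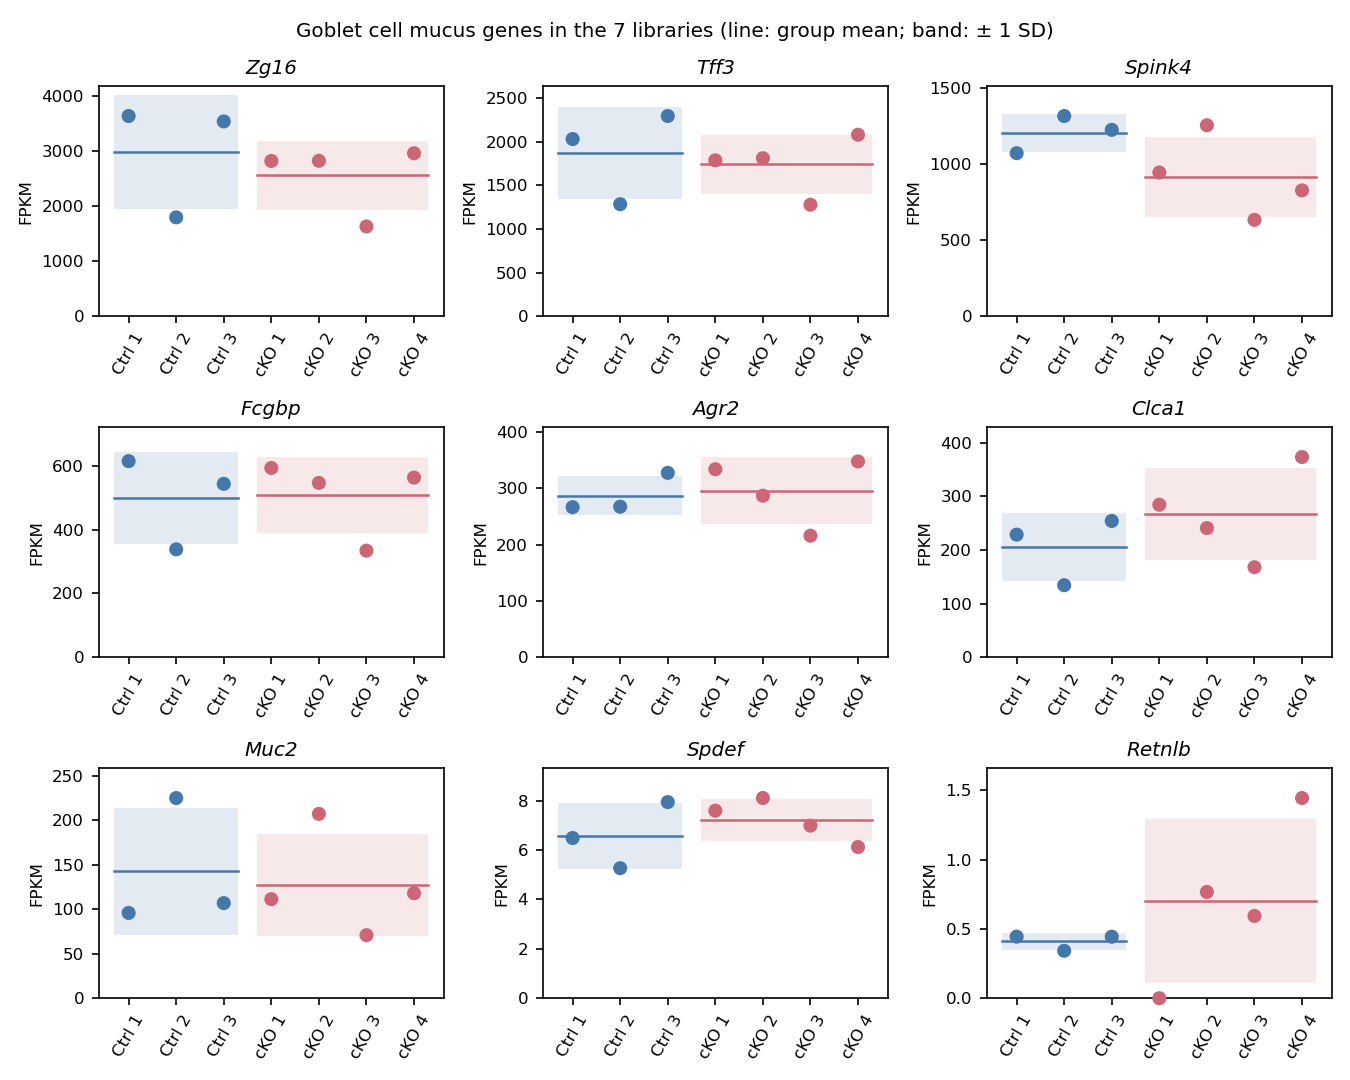
FPKM of each of the 9 genes (vertical axes, linear, from 0) in the 3 Ctrl (blue) and 4 cKO (red) libraries, with the group mean as a line and ± 1 SD as a band. The groups overlap in every panel, Ctrl 2 and cKO 3 are low for Zg16, Tff3 and Fcgbp, and Ctrl 2 and cKO 2 are high for Muc2.

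The scaffold of the gel, Muc2 (chromosome 7, 141276583 to 141308428, plus strand of GRCm39, the build of all gene positions from here on), varied most among the 8 members that were read in every library. It stood at 95.9, 225 and 107 FPKM in Ctrl replicates 1 to 3 and at 111, 207, 70.9 and 118 FPKM in cKO replicates 1 to 4. Ctrl replicate 2 and cKO replicate 2 were high, cKO replicate 3 was the lowest, and the groups overlapped. Group means were 143 ± 71.7 FPKM for Ctrl (SD, n = 3) and 127 ± 57.5 FPKM for cKO (SD, n = 4). The log2 difference was -0.16 (SE 0.40, 95% interval -1.09 to 0.76, limma adjusted p = 0.927). Its sign rested on single libraries, since the difference was 0.22 without Ctrl replicate 2 and 0.079 without cKO replicate 3. The highest library held 3.18 times the lowest, and the SD over the 7 libraries on the log2 scale was larger than that of 91.0% of the genes tested. These values rest on 14317 to 52615 reads per library.

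Fcgbp encodes a large protein with von Willebrand D domains that is packed with MUC2. It stood at 615, 338 and 544 FPKM in Ctrl and at 593, 546, 334 and 563 FPKM in cKO, in the order of the replicates. Here Ctrl replicate 2 and cKO replicate 3 were low and the other 5 libraries lay close together. The means were 499 ± 144 FPKM (SD, n = 3) and 509 ± 118 FPKM (SD, n = 4). Their log2 difference was 0.040 (SE 0.28, 95% interval -0.61 to 0.69), and it was -0.22 without Ctrl replicate 2. Fcgbp (chromosome 7, 27770661 to 27820289, plus strand) took 0.262% to 0.506% of the reads of a library, more than any other member except in Ctrl replicate 2, where Muc2 took 0.311%. The neighbouring related gene 9530053A07Rik, named here after its values were seen, reached at most 0.104 FPKM.

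Clca1 encodes a secreted metalloprotease that processes MUC2 and was the member with the largest difference on the higher side. It stood at 229, 134 and 254 FPKM in Ctrl and at 285, 241, 168 and 374 FPKM in cKO. Ctrl replicate 2 was the lowest and cKO replicate 4 the highest, and cKO replicates 2 and 3 lay inside the Ctrl range. The log2 difference was 0.37 (SE 0.31, 95% interval -0.35 to 1.09, limma adjusted p = 0.749; exact 2-sided permutation p = 0.343). Clca1 lies on chromosome 3, 144710298 to 144738537, minus strand, in a cluster of related genes.

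The lectin-like Zg16, which binds the cell wall of Gram-positive bacteria, was the most abundant member and ranked 15 among all genes of the table by mean FPKM. It lies on chromosome 7, 126649328 to 126651847, minus strand. It stood at 3632, 1793 and 3533 FPKM in Ctrl and at 2816, 2819, 1628 and 2956 FPKM in cKO. As for Fcgbp, Ctrl replicate 2 and cKO replicate 3 were low. The log2 difference was -0.19 (SE 0.36, 95% interval -1.02 to 0.63), and it was 0.0096 without cKO replicate 3.

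Tff3, the trefoil peptide of goblet cells that aids repair of the epithelium, ranked 29 (chromosome 17, 31344280 to 31348585, minus strand). It stood at 2030, 1283 and 2294 FPKM in Ctrl and at 1787, 1811, 1278 and 2080 FPKM in cKO. Its libraries were high and low much like those of Zg16, with the same low pair. For Tff3 the log2 difference was -0.084 (SE 0.29, 95% interval -0.75 to 0.58), and it turned to 0.085 without Ctrl replicate 3 and to 0.057 without cKO replicate 3.

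Spink4, a small Kazal-type protease inhibitor, had the largest difference on the lower side (chromosome 4, 40920056 to 40931395, plus strand). It stood at 1072, 1316 and 1225 FPKM in Ctrl and at 945, 1255, 633 and 827 FPKM in cKO. Of the cKO libraries, replicate 2 lay inside the Ctrl range and the other 3 below it. The log2 difference was -0.43 (SE 0.26, 95% interval -1.02 to 0.15, limma adjusted p = 0.646; exact 2-sided permutation p = 0.171, where 0.0571 is the smallest that 3 against 4 libraries can give). With the trend on gene length taken out of every library, the difference for Spink4 was -0.24, and that for Muc2 lay lower, at -0.28. Paneth cells lie beside goblet cells in the small-intestinal crypt, and their markers varied as well. The 12 Paneth genes, all of them read, had summed levels of 14271 to 38014 FPKM (Ctrl) and 7400 to 31821 FPKM (cKO), with cKO replicates 3 and 4 the lowest, and 10 of the 12 were lower in cKO. Their part in the Spink4 values was not tested.

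Agr2, the disulfide isomerase family protein that mucin production requires, was steadier (chromosome 12, 36042924 to 36054080, plus strand). It stood at 267, 268 and 328 FPKM in Ctrl and at 334, 287, 216 and 348 FPKM in cKO. Only cKO replicate 3 lay outside a band from 267 to 348 FPKM. The log2 difference was 0.027 (SE 0.20, 95% interval -0.43 to 0.48), and it took the other sign when Ctrl replicate 1 or 2 or cKO replicate 1 or 4 was left out, at lowest -0.058.

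Spdef, the ETS factor of goblet cell maturation, was read far less than the secreted members other than Retnlb (chromosome 17, 27933416 to 27949977, minus strand). It stood at 6.48, 5.26 and 7.94 FPKM in Ctrl and at 7.59, 8.10, 6.98 and 6.12 FPKM in cKO, from 293 to 470 reads. Its lowest library was Ctrl replicate 2, and all 4 cKO libraries lay above it. For Spdef the log2 difference was 0.14 (SE 0.16, 95% interval -0.23 to 0.50), the narrowest interval among the members, and -0.0026 without Ctrl replicate 2.

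Retnlb encodes RELM-beta, a goblet cell product induced by type 2 cytokines and by bacteria, which is abundant in the colon (chromosome 16, 48637219 to 48639255, plus strand). It rested on 6, 4 and 5 reads in Ctrl and on 0, 9, 6 and 14 reads in cKO. The levels were 0.444, 0.342 and 0.444 FPKM in Ctrl and 0, 0.767, 0.594 and 1.45 FPKM in cKO, where 0 reads in cKO replicate 1 allow up to 0.243 FPKM (3 reads, for counting error only). Retnlb was thus close to the limit of counting, with a log2 difference of 0.25 (SE 0.42) that was -0.039 without cKO replicate 4.

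**Figure D2:**
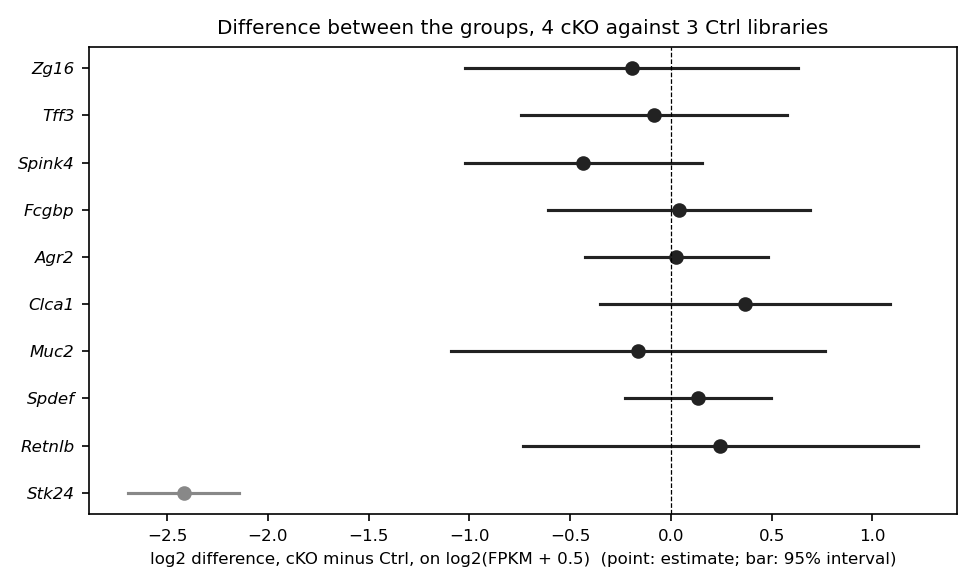
Log2 difference of cKO minus Ctrl on the log2(FPKM + 0.5) scale (horizontal axis) for each member and for Stk24, with the limma estimate as a point and its 95% interval as a bar. All 9 member intervals include 0, the widest being that of Retnlb (-0.73 to 1.22) and the narrowest that of Spdef (-0.23 to 0.50), while that of Stk24 runs from -2.69 to -2.15.

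Per length, the order of mean levels was Zg16, Tff3, Spink4, Fcgbp, Agr2, Clca1, Muc2, Spdef and Retnlb, with means of 2740, 1795, 1039, 505, 292, 241, 134, 6.92 and 0.577 FPKM. Neighbours in this order were not always separated. Spink4 exceeded Tff3 in Ctrl replicate 2, Clca1 exceeded Agr2 in cKO replicate 4, and Muc2 exceeded Clca1 in Ctrl replicate 2. Together the 9 genes took between 0.875% and 1.12% of the reads in Ctrl and between 0.628% and 1.27% in cKO. The share was lowest in cKO replicate 3 and highest in cKO replicate 2.

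The members did not vary as a single block. Zg16, Tff3, Fcgbp and Clca1 shared the same lowest pair, Ctrl replicate 2 and cKO replicate 3, a property of 6.86% of all genes tested. Muc2 and Spink4 had Ctrl replicate 2 and cKO replicate 2 as their highest pair, a property of 1.78% of all genes tested. For Spink4 the step was small, with 1255 FPKM in cKO replicate 2 against 1225 FPKM in Ctrl replicate 3. These pairs cross the genotypes, were noticed after the values were seen, and are given as a description. Over all genes, the deviations of Ctrl replicate 2 and cKO replicate 3 from their group means correlated at 0.31, the highest of the 12 pairs of a Ctrl and a cKO library. Muc2 parted from the proteins it is secreted with: per 100 FPKM of Fcgbp there were 15.6, 66.6 and 19.7 FPKM of Muc2 in Ctrl and 18.8, 37.9, 21.2 and 20.97 FPKM in cKO. Apart from replicate 2 of each group, this ratio stayed between 15.6 and 21.2. By contrast, 100 FPKM of Tff3 came with 127 to 179 FPKM of Zg16 in the 7 libraries.

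Likeness of each member to the mean of the other 8, as Pearson's r over the 7 libraries on standardised log2 values, was 0.88 for Tff3, 0.85 for Zg16, 0.84 for Fcgbp, 0.75 for Agr2 and 0.71 for Clca1. It was 0.30 for Spink4, 0.28 for Spdef, 0.046 for Muc2 and 0.035 for Retnlb. With 7 points that share libraries and scaling, these are descriptions. Among the genes outside the set most like the mean of its 9 members were Hsd3b3 (r = 0.99), a steroid dehydrogenase, Rnf113a2 (r = 0.96), Rab27a (r = 0.96), a small GTPase of granule exocytosis, and Ankrd39 (r = 0.96). They were taken from the highest values above a mean level of 1 FPKM.

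**Figure D3:**
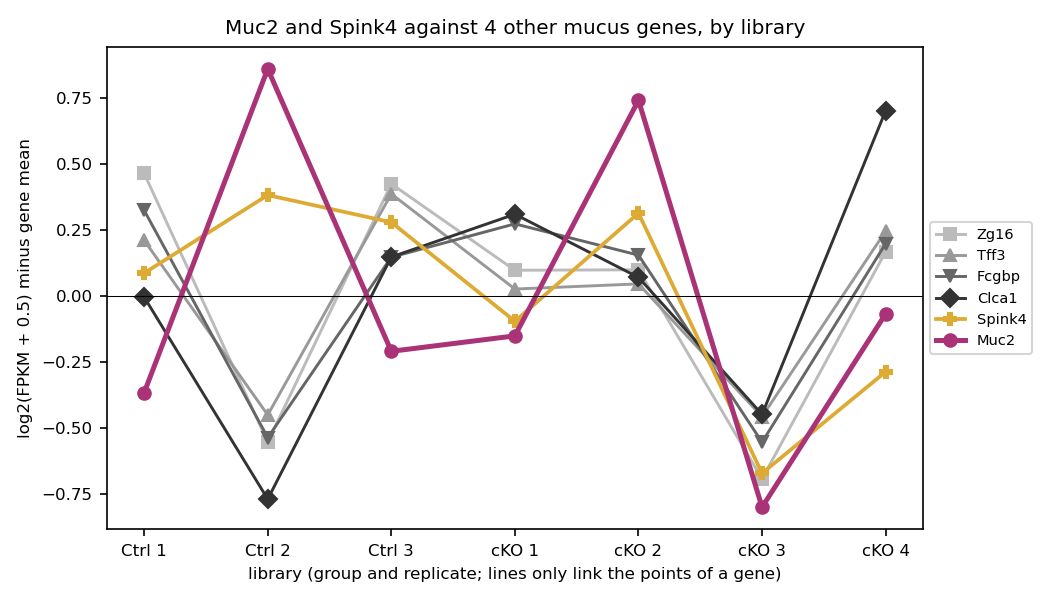
Log2(FPKM + 0.5) minus the gene's mean over the 7 libraries (vertical axis) for Muc2, Spink4 and 4 other members, by library. Muc2 and Spink4 are highest in Ctrl 2 and cKO 2, Spink4 with Ctrl 3 close behind. Zg16, Tff3, Fcgbp and Clca1 are low in Ctrl 2 and near their mean in cKO 2, and all 6 are low in cKO 3.

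The step by which Ctrl replicate 2 and cKO replicate 2 exceeded the other libraries for Muc2 was 0.81 on the log2 scale, or 1.75-fold, between 207 FPKM in the lower of the pair and 118 FPKM in cKO replicate 4. Among the 11417 genes tested with a mean of at least 1 FPKM this was the largest such step, and over all 13057 genes tested it ranked 5. The pair was taken from the Muc2 values, which favours Muc2 in this rank, so the rank is a description only. The nearest gene on each side of Muc2 with a mean of at least 1 FPKM did not share it. Genes below that level were not compared. Ap2a2 stood at 44.6 and 37.1 FPKM in that pair against 52.7 FPKM in cKO replicate 3. Tollip stood at 39.1 and 26.5 FPKM in the pair against 46.0 FPKM in cKO replicate 4. Muc2 is a long gene of 13914 bases. The 837 other tested genes of at least 10000 bases had median deviations of -0.050 in Ctrl replicate 2 and 0.107 in cKO replicate 2. With the trend on gene length taken out of every library the step for Muc2 was 0.71. Whether the locus or gene length had a part in the step was not tested. Reg4, a lectin of enteroendocrine and goblet cells, had the same highest pair, at 135 and 182 FPKM against 62.3 to 108 FPKM elsewhere, as did the Paneth cell gene Defa3 at 89.0 and 119 FPKM against 23.0 to 68.4 FPKM; both were chosen after their values were seen. The summed Paneth list did not have that order, at 23409 and 25458 FPKM in that pair against 38014 FPKM in Ctrl replicate 3. Without replicate 2 of both groups, Muc2 stood at 95.9 and 107 FPKM in Ctrl and at 70.9 to 118 FPKM in cKO, a log2 difference of -0.052.

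Other genes of the goblet programme were read from fixed lists, and none of their genes passed in limma in either direction; an unadjusted p under 0.05 was reached only where stated. Of the other secreted mucins and trefoil peptides, 5 of 6 names matched and 0 reached the level for testing. Tff1 and Tff2, the stomach trefoils, reached at most 0.122 and 0.252 FPKM, whereas Muc2 and Tff3 were read in every library. Among the transmembrane mucins, 5 of 9 matched genes were tested, 2 higher and 3 lower in cKO (median log2 difference -0.088). Muc13, the main cell-surface mucin here, averaged 776 ± 110 (Ctrl, n = 3) and 730 ± 186 FPKM (cKO, n = 4; SD). Cdhr5, a mucin-like cadherin of microvilli, stood at 631 ± 53.1 and 599 ± 174 FPKM, and Muc4 at 3.06 ± 0.986 and 3.92 ± 1.63 FPKM.

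All 9 goblet transcription factors were tested, 6 higher and 3 lower in cKO, with a median of 0.056 and 0 called. Xbp1, which expands the secretory apparatus, averaged 98.0 ± 22.5 (Ctrl, n = 3) and 104 ± 12.1 FPKM (cKO, n = 4; SD). Klf4, needed for goblet cell maturation, stood at 38.0 ± 7.95 and 32.7 ± 7.50 FPKM. Foxa1 stood at 2.84 ± 0.280 and 3.53 ± 0.885 FPKM. Foxa3 had the smallest p of the list, at 8.61 ± 2.23 and 6.32 ± 1.86 FPKM (log2 difference -0.43, limma adjusted p = 0.637).

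Mucin glycosylation enzymes build the sugar chains that hold water in the gel. Of 25, 24 were tested, 17 higher and 7 lower in cKO, with a median of 0.055, 0 called, and 2 at an unadjusted p under 0.05 (against 8.97% of all genes). Gcnt4, a core 2 branching enzyme, stood at 10.3, 9.18 and 8.85 FPKM in Ctrl and at 11.8, 12.0, 12.5 and 12.1 FPKM in cKO. Its groups did not overlap, which 1 of the 24 showed, against 10.1% of all genes (log2 difference 0.35, SE 0.096, limma adjusted p = 0.493). C1galt1, which makes the core 1 structure, averaged 10.6 ± 2.95 (Ctrl, n = 3) and 14.1 ± 1.66 FPKM (cKO, n = 4; SD), with an adjusted p of 0.554 in limma. The most abundant were B4galnt2, at 142 ± 34.0 and 160 ± 23.8 FPKM, and B3gnt3, at 79.8 ± 8.34 and 81.2 ± 30.4 FPKM.

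The folding and secretion machinery had 19 of 19 genes tested, 7 higher and 12 lower, with a median of -0.028, 0 called and 1 at an unadjusted p under 0.05 (against 8.97% of all genes). Vamp8, the SNARE protein of regulated exocytosis, stood at 145, 150 and 144 FPKM in Ctrl and at 108, 86.2, 103 and 129 FPKM in cKO. Its groups did not overlap, which 1 of the 19 showed, against 10.1% of all genes (log2 difference -0.47, SE 0.15, limma adjusted p = 0.511). Tmed3, a cargo receptor of early secretion, averaged 32.2 ± 3.46 (Ctrl, n = 3) and 25.8 ± 3.58 FPKM (cKO, n = 4; SD). Nlrp6, an innate sensor linked to mucin release, was level at 82.6 ± 0.655 and 82.7 ± 10.7 FPKM.

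Of 22 other goblet cell markers, 20 were tested, 10 higher and 10 lower in cKO, with a median of 0.0043 and 0 called. Guca2a, the precursor of guanylin, averaged 603 ± 151 (Ctrl, n = 3) and 589 ± 139 FPKM (cKO, n = 4; SD), and the chemokine Ccl6 at 90.3 ± 11.1 and 92.3 ± 29.0 FPKM. Hepacam2 stood at 13.2 ± 1.17 and 15.8 ± 2.34 FPKM, and Gsdmc4 at 14.8 ± 2.68 and 26.9 ± 14.0 FPKM, highest in cKO replicate 4 (46.2 FPKM). In this list 11 of the 20 genes had Ctrl replicate 2 and cKO replicate 3 as their lowest pair, the pair of Zg16, Tff3, Fcgbp and Clca1, and 0 had the highest pair of Muc2. The low pair was also that of 6 of 19 folding and secretion genes, 3 of 9 transcription factors and 2 of 24 glycosylation enzymes, and of 4 of 8 genes of cycling cells, whose summed level ran from 171 to 204 FPKM (Ctrl) and from 149 to 244 FPKM (cKO) and was lowest in that pair. The part of cycling cells was not tested. Over all genes tested the share was 6.86%.

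**Figure D4:**
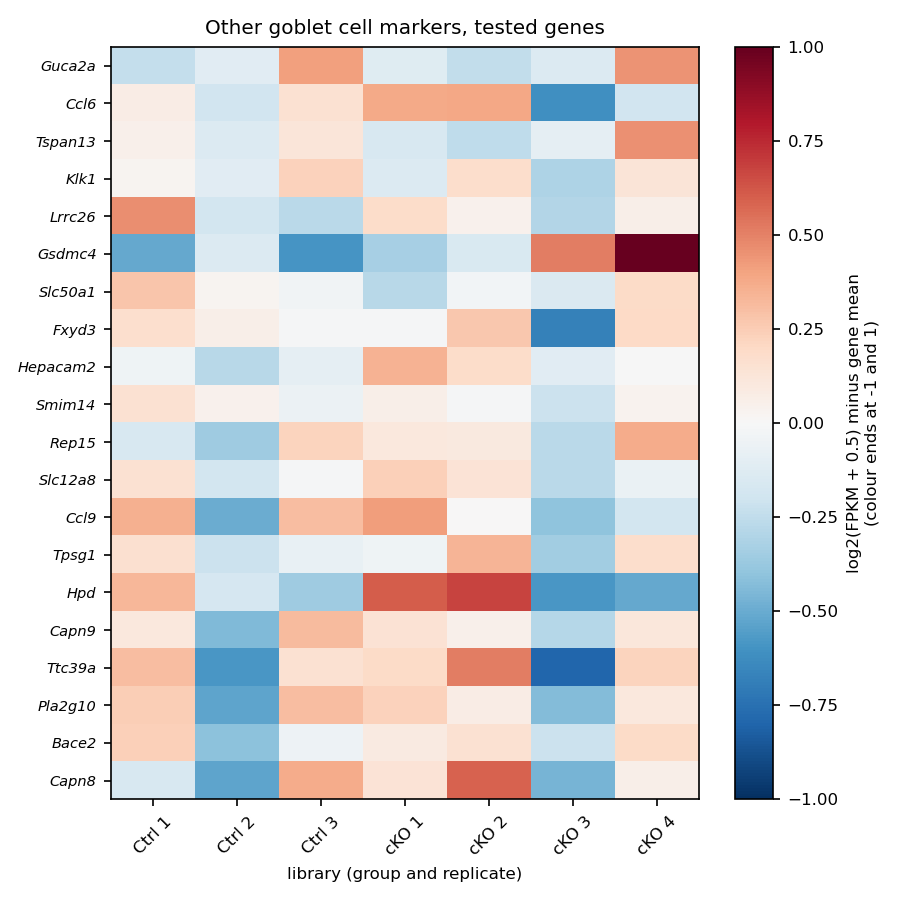
Log2(FPKM + 0.5) minus the gene's mean (colour, blue low and red high, ending at -1 and 1) for the 20 tested genes of the other goblet cell markers (rows, most abundant at the top) in the 7 libraries (columns). The columns of Ctrl 2 and cKO 3 are blue for most genes, and Gsdmc4 in cKO 4 reaches the end of the colour range.

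In the Clca family, Clca1 included, 7 of 8 names matched and 6 were tested, all 6 higher in cKO by their log2 means and 0 called, with a median of 0.29. Clca4b averaged 526 ± 78.0 (Ctrl, n = 3) and 619 ± 200 FPKM (cKO, n = 4; SD), Clca4a at 400 ± 220 and 396 ± 173 FPKM, and Clca3a2 at 2.95 ± 0.396 and 4.52 ± 1.36 FPKM (log2 difference 0.51, limma adjusted p = 0.554). These neighbours are similar in sequence, so their reads may have been divided unevenly. In the resistin family Retnlb was the only one tested of 4 matched genes; Retnla was read 1 time in all and Retnlg was listed at 0.

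The cytokines that induce Retnlb and Clca1 were hardly read. Il4 and Il9 were listed at 0 in the 7 libraries and Il13 was read 1 time. The receptor gene Il13ra2 was also listed at 0. Of 14 genes of this axis 6 were tested, 3 higher and 3 lower, with a median of 0.035 and 0 called. Stat6, the transcription factor downstream of the IL-4 receptor, averaged 36.8 ± 0.556 (Ctrl, n = 3) and 36.0 ± 3.89 FPKM (cKO, n = 4; SD). Il4ra stood at 13.1 ± 3.80 and 10.7 ± 3.55 FPKM, the epithelial alarmin gene Il33 at 10.5 ± 4.86 and 13.7 ± 7.67 FPKM, and Ang4, an antimicrobial ribonuclease also listed for Paneth cells, at 724 ± 298 and 830 ± 465 FPKM.

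Markers of other cells gave no call in these libraries. In each of the 13 lists of cell types and regions, 0 genes passed the threshold in limma. An unadjusted limma p under 0.05 was reached by 1 of 10 enterocyte and 1 of 10 enteroendocrine genes tested. It was also reached by 1 of 5 colon and 1 of 9 small-intestinal genes tested, against 8.97% of all genes. The groups did not overlap for 2, 2, 1 and 2 genes of these lists, in that order, against 10.1% of all genes. The tested genes of T cells and innate lymphoid cells were all 7 lower in cKO and those of B cells and plasma cells 5 higher and 1 lower. The most abundant genes listed were Apoa1 for enterocytes (7254 to 14465 FPKM) and Olfm4 for stem cells (207 to 492 FPKM). Pcna was that gene for cycling cells (71.3 to 95.8 FPKM) and Reg4 for enteroendocrine cells. Gzma was that gene for T cells and innate lymphoid cells (182 to 696 FPKM), and Igkc for B cells and plasma cells (10.8 to 111 FPKM). Ptprc led the list of macrophages and granulocytes (4.52 to 13.7 FPKM), of which 5 of 9 genes were tested, but other leukocytes express it too. Tuft cells had a summed level of 14.8 to 38.2 FPKM, and Paneth cells and the regions are given above. For stroma, muscle and endothelium 1 of 11 genes was tested (Dcn, 0.536 to 6.25 FPKM). For stomach and pancreas it was 1 of 10 (Cela1, 4.08 to 10.3 FPKM), and 4 were listed at 0 in all 7 libraries. Such single genes do not show that these tissues were present.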

How the data were processed

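FPKM values, 1 for every gene in each library, were deposited by the authors, and HISAT2 is the aligner named in the submitters' processing notes. Of the counting program, strand setting, annotation and library size behind FPKM nothing is stated in the sources used here. Chromosome names in the file are those of GRCm39. Columns were matched to samples by their description labels, and replicate numbers follow the titles. In each library 100% of the products of FPKM and gene length were multiples of a common step (within 0.01 of a whole number), which gave the reads behind each value, 14659708 to 19659622 per library.

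The 13057 genes whose mean reached 0.5 FPKM, all 9 members included, were transformed to log2(FPKM + 0.5), a scale that understates changes of low genes, and fitted with limma 3.58.1 in R 4.3.3 (lmFit, eBayes with trend, 2-sided, Benjamini-Hochberg, threshold 0.05, no covariate). The 95% intervals use limma's moderated standard errors. Single members also had an exact 2-sided permutation test over the 35 splits. The fit was also run on simulated counts drawn for each gene separately, with either no change or changes larger than those of the members. Its outcome is not reported here and does not bear on changes as small as theirs.

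Members and lists were chosen with earlier results of these data known. Named were the members, Stk24, in each goblet list the 2 most abundant tested genes and the 2 of smallest p, in each cell type list the most abundant gene, and the 5 genes (mean of at least 1 FPKM) most correlated with the members' mean. Of these, 2 genes are not reported here. Alternatives were pseudocounts of 0.1 and 1, no filter or a mean of at least 5 FPKM, a common sum (TPM), quantile normalization, limma voom on recovered reads, the replicate number as a block, removal of the length trend, array weights and each library left out. Leaving out Ctrl 2 with cKO 2, or with cKO 3, was added after seeing the data. Promoter windows are from RefSeq (GRCm38.p6).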

Additional observations from a re-analysis of the deposited data

Results flagged for a closer look

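In the 4 cKO libraries, 2 of the 9 members had 1 library far from the others, by the gap to the nearest library over the whole range on the log2 scale (above Dixon's 95% critical value for 4 libraries, which chance passes in about 1 of 20 groups). For Zg16 the value was 0.919, with cKO replicate 3 at 1628 FPKM below 2816 to 2956 FPKM. For Fcgbp it was 0.857, with the same library at 334 FPKM below 546 to 593 FPKM. The 2 genes varied alike over the libraries, so they are not separate cases to set against that rate. The share of all genes tested above the critical value was not worked out, so the count of 2 cannot be read as a trait of the members. In Ctrl, where 3 libraries are too few for this measure, replicate 2 was the lowest for both genes, at 1793 and 338 FPKM.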

How the results depend on the processing

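The count of called members was 0 under all 19 alternatives, voom included, with the smallest adjusted p at 0.442. Clca1 stayed higher (0.087 to 0.57) and Spink4 lower (-0.60 to -0.21) in cKO in all 19, and the signs of the other 7 members turned in at least 1. The log2 difference turned for Tff3 with TPM (0.0045), quantile normalization (0.030), length trend removed (0.12) and array weights (0.074), for Zg16 with array weights (0.040), for Fcgbp with the length trend removed (-0.042), and for Retnlb with voom (-0.17). With 1 library left out the differences ranged from -0.43 to 0.22 for Muc2, -0.33 to 0.085 for Tff3, -0.22 to 0.23 for Fcgbp, -0.53 to 0.0096 for Zg16, -0.058 to 0.17 for Agr2, -0.0026 to 0.27 for Spdef and -0.039 to 0.61 for Retnlb. Without Ctrl 2 and cKO 2 the values were -0.36 for Tff3, -0.59 for Zg16, -0.26 for Fcgbp, -0.014 for Agr2 and -0.058 for Spdef, and without Ctrl 2 and cKO 3 they were 0.46 for Muc2 and -0.027 for Fcgbp. The cause was not tested. With the mean of at least 5 FPKM, Retnlb was not among the genes tested.

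With the replicate number as a block, 0 genes were called, and the differences were -0.020 for Fcgbp, -0.058 for Agr2 and -0.039 for Retnlb. No label says that these numbers pair the libraries, and the description labels number them otherwise. Deviations of same-numbered libraries correlated at 0.12, -0.087 and -0.13 over genes, which cannot show whether the libraries were paired. The count of genes called over the whole table, 4 in the main analysis, was 1 with a pseudocount of 0.1, with no filter, with the length trend removed and without Ctrl 2 and cKO 3, 2 with a mean of at least 5 FPKM and with voom, 0 without Ctrl 2 and cKO 2, and 1 to 7 with 1 library left out, highest without cKO replicate 1. Depth limits Retnlb, with at most 14 reads in a library.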
